A study of Mus musculus with 4 samples.

Results

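The 34 genes described here carry out and control the synthesis of cholesterol and fatty acids, and were taken by name from a table of 27179 mouse genes. Of them, 18 encode enzymes of the sterol pathway, 6 sense or move sterols, 8 make or modify fatty acids and 2 export sterols. All 34 were found in the table. Their RNA was read in leukemia stem cells (LSCs), the cells thought to sustain an acute myeloid leukemia (AML), from a mouse model. The 2 B7-H4-null and the 2 wild-type samples all came from bone marrow on the C57BL/6 background and were sorted as YFP+, Mac-1+ and c-Kit+, where YFP is a yellow fluorescent protein and Mac-1 and c-Kit are a myeloid integrin and a growth factor receptor. B7-H4, the product of Vtcn1, is a surface ligand that restrains T cells. The labels do not give the leukemia's driver, the animals' age, whether animals were pooled, or whether the host as well as the leukemia lacked B7-H4. Values are RPKM, reads scaled by gene length and by the size of the library.

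Sterol and fatty acid synthesis are governed by the SREBP factors. When the endoplasmic reticulum is poor in sterol, the escort protein Scap carries an SREBP precursor to the Golgi, where proteases free the part that enters the nucleus and turns on the enzymes of both pathways. When sterol is plentiful, Insig proteins hold Scap back, and oxidized sterols activate the LXR receptors, which raise the exporters Abca1 and Abcg1 and also Srebf1. Rapidly dividing blood cells draw on both pathways for membrane.

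The control regions of 4 of these genes are printed first, because SREBP factors are known to act at promoters together with the factor NF-Y, which binds the CCAAT box. Each window runs 5′ to 3′ on the gene's own strand, from 250 bases before a RefSeq start to 50 bases after it, on GRCm38.p6. Capitals mark CCAAT on either strand, so that ATTGG is a CCAAT read from the other strand, and a sterol regulatory element searched as TCACNCCAC. Hmgcs1 lies at chr13:119690101-119690400 on the plus strand, Mvk at chr5:114444019-114444318 on the plus strand, Insig1 at chr5:28071162-28071461 on the plus strand and Fasn at chr11:120824498-120824797 on the minus strand.
Hmgcs1: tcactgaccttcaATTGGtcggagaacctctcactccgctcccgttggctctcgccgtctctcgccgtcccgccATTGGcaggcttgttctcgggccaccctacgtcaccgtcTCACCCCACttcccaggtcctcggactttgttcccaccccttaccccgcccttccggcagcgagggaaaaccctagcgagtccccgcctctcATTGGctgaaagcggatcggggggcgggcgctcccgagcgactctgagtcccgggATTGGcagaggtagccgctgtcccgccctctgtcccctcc
Mvk: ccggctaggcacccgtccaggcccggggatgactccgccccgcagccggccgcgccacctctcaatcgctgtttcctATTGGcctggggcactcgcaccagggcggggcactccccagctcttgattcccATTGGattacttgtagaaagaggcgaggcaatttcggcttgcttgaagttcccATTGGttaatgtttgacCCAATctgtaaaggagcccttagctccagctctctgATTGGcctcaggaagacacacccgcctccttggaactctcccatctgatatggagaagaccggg
Insig1: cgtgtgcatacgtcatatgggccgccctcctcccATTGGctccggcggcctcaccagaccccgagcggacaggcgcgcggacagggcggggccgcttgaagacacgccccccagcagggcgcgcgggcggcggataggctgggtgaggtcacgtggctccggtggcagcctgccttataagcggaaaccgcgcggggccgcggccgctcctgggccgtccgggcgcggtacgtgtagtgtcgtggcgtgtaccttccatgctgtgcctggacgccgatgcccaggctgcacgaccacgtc
Fasn: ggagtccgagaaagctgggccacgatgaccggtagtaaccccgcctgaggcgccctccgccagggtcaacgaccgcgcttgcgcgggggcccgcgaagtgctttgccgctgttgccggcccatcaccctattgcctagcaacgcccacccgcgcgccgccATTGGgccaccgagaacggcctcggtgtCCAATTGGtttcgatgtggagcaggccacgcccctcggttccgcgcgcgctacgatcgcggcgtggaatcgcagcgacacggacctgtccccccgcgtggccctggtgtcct

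The Hmgcs1 window holds the single sterol element match among the members' windows, 137 bases before the start, together with 4 CCAAT matches. Mvk has 5 CCAAT matches, Insig1 has 1, and Fasn has 3, of which a pair overlap each other as CCAATTGG. None of these CCAAT matches overlaps another motif searched. RefSeq windows were given for 26 of the 34 members, 34 windows in all because some genes have several starts. CCAAT was found in 61.8% of the members' windows, against 37.4% of the 32851 windows of all genes. The sterol element was found in 2.94%, against 1.24%, the GC box GGGCGG in 76.5%, against 35.7%, and the E-box CACGTG in 20.6%, against 7.15%, each on either strand. Of the 15 sterol enzymes with a window, 14 held a CCAAT. These matches describe the letters of the windows and were not tested.

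The library totals behind the RPKM scaling were 9419425 and 10814448 reads in B7-H4-null replicates 1 and 2, and 10144166 and 9933947 reads in wild type replicates 1 and 2. Vtcn1, the deleted gene, had 1 read in each B7-H4-null library and 0 reads in both wild-type libraries, so it does not check the labels at this depth. The sort markers were present in every library but not at one level. Itgam had 82.9 and 59.9 RPKM in B7-H4-null and 114 and 86.9 RPKM in wild type, Itgb2 123 and 146 RPKM against 213 and 213 RPKM, and Kit 11.02 and 9.37 RPKM against 24.0 and 7.19 RPKM. Markers of other cell types differed in part. The 12 late neutrophil genes summed to 7352 and 9161 RPKM in B7-H4-null, against 25121 and 15137 RPKM in wild type. All 12 were lower in both B7-H4-null libraries, against 28% of all genes tested. The 10 immediate early genes, which respond to handling and signals, summed to 10315 and 4568 RPKM, against 1867 and 2712 RPKM. All 10 were higher in both B7-H4-null libraries, against 16% of all genes tested. The part of these markers in any value below was not tested. In bulk RNA, fewer cells of a type and less RNA per cell cannot be told apart. Markers of erythroid, T and NK cells stayed at or below 1.83 RPKM. The 12 monocyte and macrophage genes summed to 1508 and 1887 RPKM in B7-H4-null and 1103 and 1329 RPKM in wild type, mostly Ly6c2. Single genes of that list lay on opposite sides without passing the adjusted test, Cd68 with 147 and 139 RPKM in B7-H4-null against 60.5 and 63.4 RPKM, and Vcam1 with 12.6 and 1.12 RPKM against 93.0 and 30.01 RPKM in wild type. The 8 cycling cell genes summed to 502 and 556 RPKM in B7-H4-null and 564 and 482 RPKM in wild type. The 8 adipocyte and stroma genes summed to 21.5 and 8.35 RPKM in B7-H4-null and 11.4 and 12.7 RPKM in wild type, mostly Pdgfrb, with Plin1 and Lep at 0 in every library. Of the B cell genes, Pax5 was at 0, while Cd79b reached 60.7 RPKM.

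No sterol or fatty acid synthesis gene passed limma's test between B7-H4-null and wild-type LSCs. Of the 34 members, 31 reached the level filter of at least 1 RPKM in 2 libraries, and 0 of these passed at an adjusted p of 0.05, against 0.0991% of all 12107 genes tested. At an unadjusted p under 0.05, 0 of these 31 members were counted, against 12.3% of all genes. Voom, limma's test on recovered reads, also called 0 members. Log2 differences (B7-H4-null minus wild type, of RPKM + 1) ran between −0.68 and 0.75, with 19 members above 0 and 12 below. Of all genes tested, 41.5% lay above 0. The median member stood at 0.17, against −0.086 for all genes tested. Both B7-H4-null libraries lay above both wild-type libraries for 9 of the 31 members, against 16% of all genes, and below them for 6, against 28%. The gap between replicates of a genotype exceeded the difference between genotypes for 21 of the 31 members, or 67.7%, and for 68.6% of all genes. The 95% interval of the log2 difference lay within −1 and 1 for 17 of the 31 members, against 52.4% of all genes. For the others a 2-fold difference on this scale was within the interval.

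**Figure D1:**
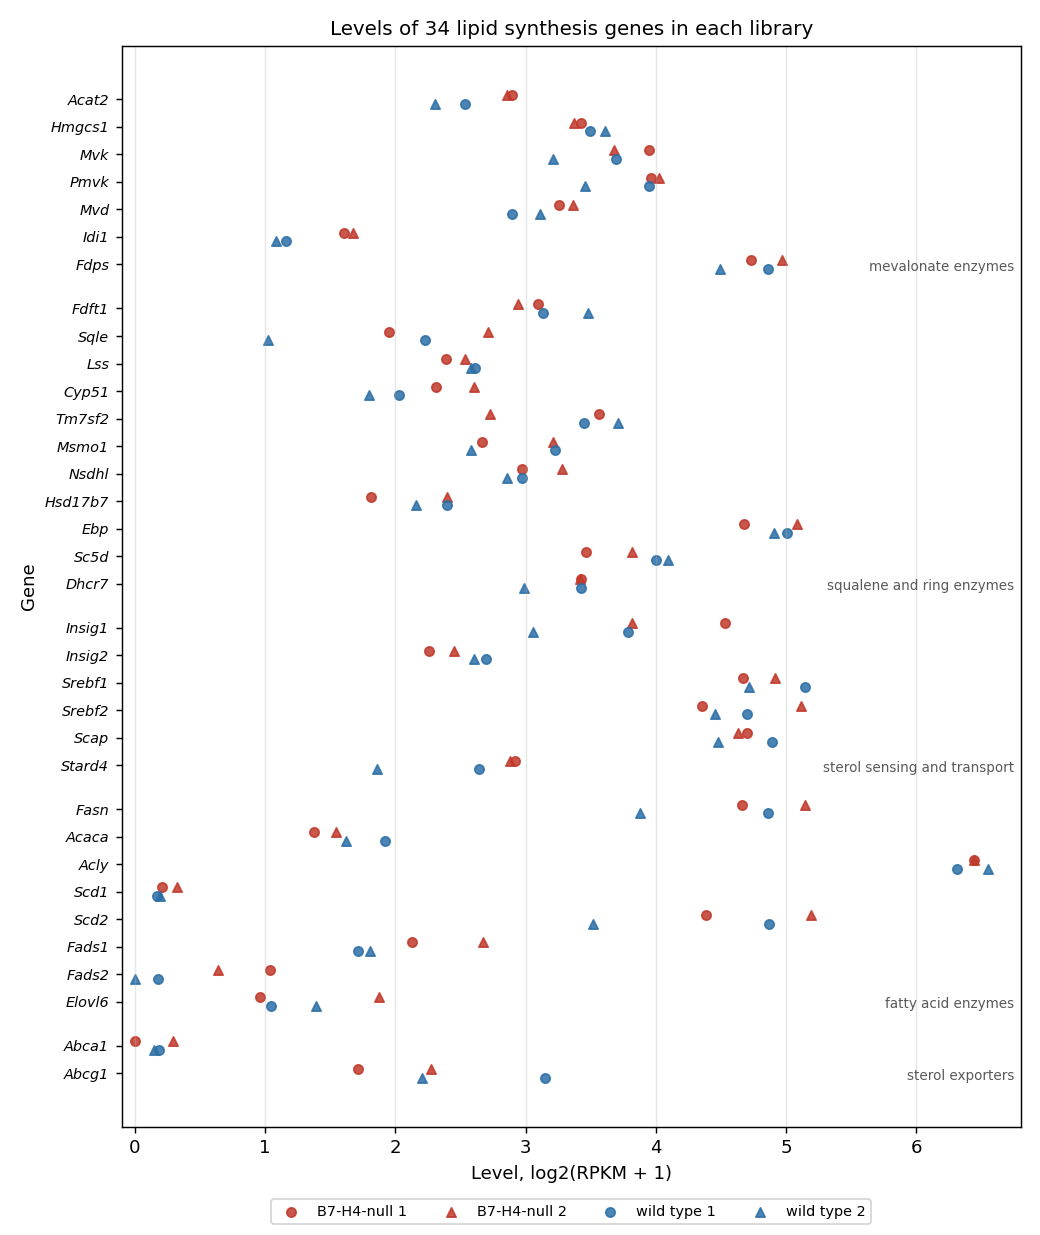
Level of each of the 34 genes as log2(RPKM + 1) in the 2 B7-H4-null libraries (red) and the 2 wild-type libraries (blue), with circles for replicate 1 and triangles for replicate 2, grouped by role. Acly stands highest, and Scd1 and Abca1 lie at or below 0.249 RPKM in every library.

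**Figure D2:**
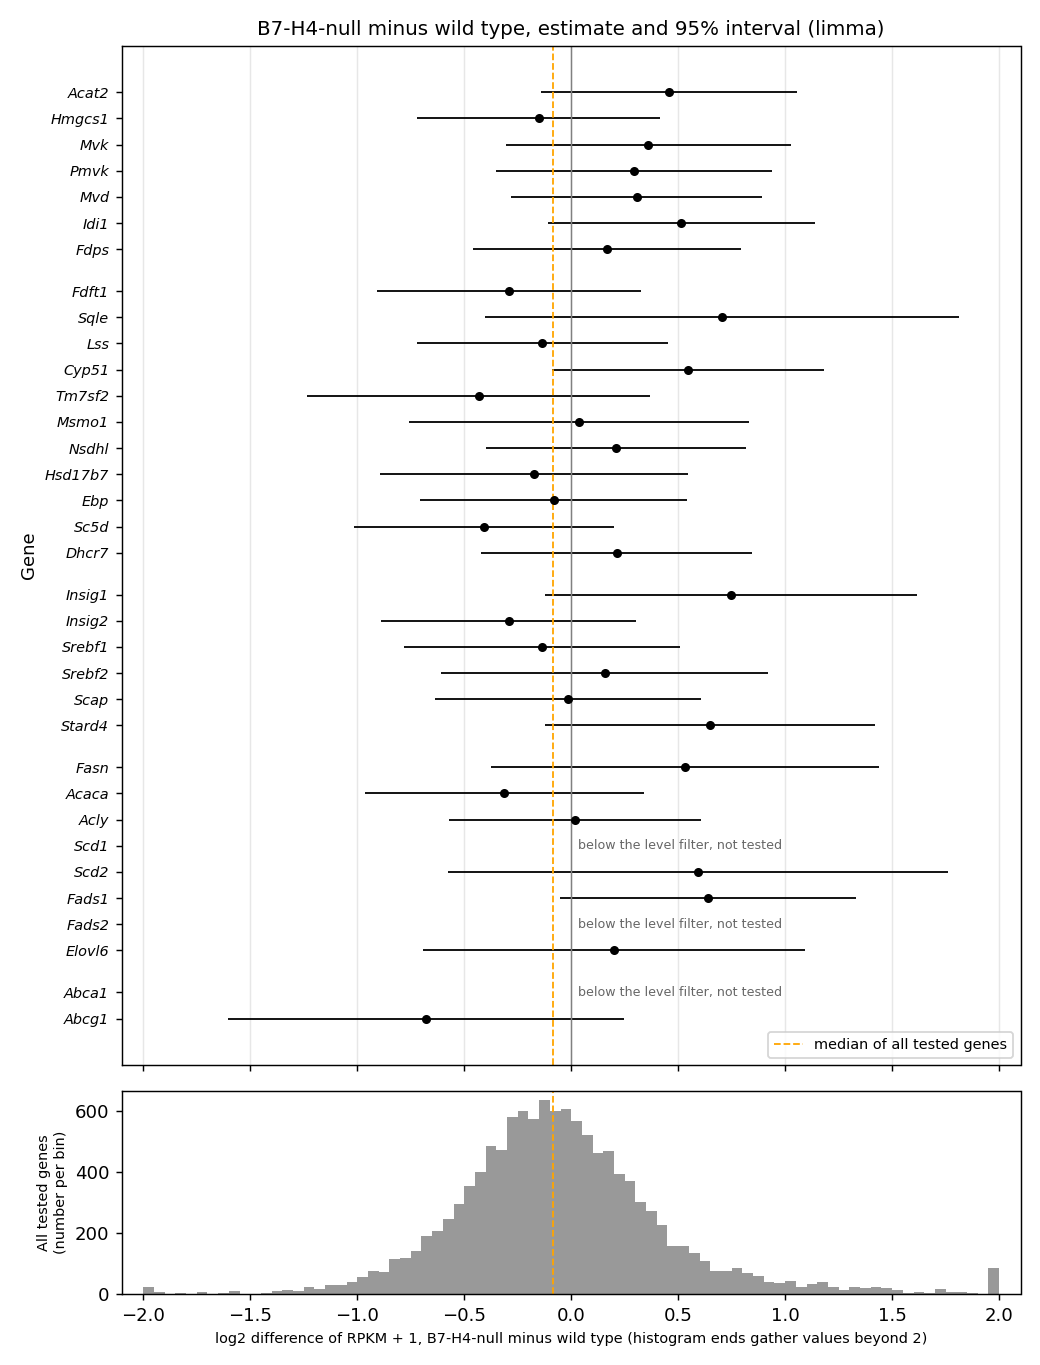
Log2 difference of RPKM + 1, B7-H4-null minus wild type, for the 31 tested members (points, with 95% intervals from limma) above a histogram of all 12107 tested genes. Every interval crosses 0, and estimates run between −0.68 and 0.75.

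The mevalonate enzymes turn acetyl-CoA into farnesyl diphosphate, the shared precursor of sterols and of lipid anchors on proteins. All 7 were tested, 0 passed, and their median log2 difference was 0.31. Of them 6 lay above 0 and 1 below, where 41.5% of all genes tested lay above 0. Idi1, the isopentenyl diphosphate isomerase (gene ID 319554, chromosome 13), had 2.04 and 2.19 RPKM in B7-H4-null libraries and 1.24 and 1.12 RPKM in wild-type libraries. The groups do not overlap, and its log2 difference was 0.51 ± 0.261 (SE, adjusted p = 0.491, limma). It rests on 32 to 68 reads per library. Without any 1 of the 4 libraries its estimate stayed between 0.48 and 0.55, the narrowest such range of the members on this scale. Adding 1 RPKM understates differences of so low a gene, and with 0.1 RPKM added in its place the estimate was 0.79.

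Acat2, the cytosolic thiolase that starts the pathway (gene ID 110460, chromosome 17), stood at 6.44 and 6.24 RPKM in B7-H4-null against 4.80 and 3.93 RPKM in wild type, again without overlap. Its log2 difference was 0.46 ± 0.25 (SE, adjusted p = 0.521). Mvd, the mevalonate diphosphate decarboxylase, measured 8.54 and 9.28 RPKM in B7-H4-null against 6.45 and 7.61 RPKM in wild type, a log2 difference of 0.31 (adjusted p = 0.656). The mevalonate kinase Mvk had 14.4 and 11.8 RPKM in B7-H4-null and 11.9 and 8.25 RPKM in wild type, where the groups overlap. Pmvk, the next kinase, had 14.6 and 15.3 RPKM against 14.4 and 9.96 RPKM, so that wild type replicate 1 lay just under the B7-H4-null libraries and replicate 2 well below. For Fdps, the farnesyl diphosphate synthase and the most abundant gene of this step, the B7-H4-null libraries gave 25.5 and 30.3 RPKM and the wild-type libraries 28.1 and 21.6 RPKM. Hmgcs1, the HMG-CoA synthase whose promoter is printed above, went the other way with 9.77 and 9.35 RPKM in B7-H4-null and 10.3 and 11.2 RPKM in wild type. Its log2 difference was −0.15 ± 0.239 (SE, adjusted p = 0.829), the only one below 0 among these 7.

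The later enzymes join farnesyl units into squalene, close the sterol rings and trim lanosterol to cholesterol. They did not share a direction. Of 11 tested, 5 were above 0 and 6 below, with a median of −0.082, and 0 passed. Sqle, the squalene epoxidase and a rate-controlling step (Entrez 20775; chromosome 15, 59315092 to 59331193), was the most variable, with 2.86 and 5.55 RPKM in B7-H4-null and 3.69 and 1.03 RPKM in wild type. The 2 wild-type libraries thus differed 3.6-fold, more than the means of the genotypes at 4.21 ± 1.90 and 2.36 ± 1.89 RPKM (SD, n = 2 each). Its log2 difference of 0.71 ± 0.464 (SE, adjusted p = 0.591) shrank to 0.099 when wild type replicate 2 was left out and stood at 1.31 when the other wild-type library was.

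Cyp51, the lanosterol demethylase (gene ID 13121, chromosome 5), had 3.98 and 5.08 RPKM in B7-H4-null and 3.08 and 2.47 RPKM in wild type. Here the groups do not overlap, and the log2 difference was 0.55 ± 0.267 (SE, adjusted p = 0.476). The sterol desaturase Sc5d had 10.01 and 13.1 RPKM in B7-H4-null and 15.03 and 16.02 RPKM in wild type, below wild type in both libraries, with a log2 difference of −0.41 (adjusted p = 0.571). Fdft1, the squalene synthase, stood at 7.53 and 6.69 RPKM against 7.78 and 10.2 RPKM, and Lss, the lanosterol synthase, at 4.24 and 4.80 RPKM against 5.12 and 4.998 RPKM. Both lay lower in both B7-H4-null libraries, by less than the spread allows to be called. The libraries do not mark strand, and the span of Fdft1 overlaps that of Ctsb, a lysosomal protease gene. Any reads of the overlap cannot be assigned with certainty, and whether exons overlap was not checked. The same holds for Tm7sf2, a sterol reductase that overlaps Vps51, with 10.8 and 5.63 RPKM in B7-H4-null and 9.93 and 12.05 RPKM in wild type. B7-H4-null replicate 2 alone stood apart for that gene, and its log2 difference of −0.43 became −0.013 without that library.

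The next enzymes act together on the sterol nucleus. Msmo1, the methylsterol oxidase, had 5.35 and 8.26 RPKM in B7-H4-null and 8.38 and 4.97 RPKM in wild type. Its partner Nsdhl, a dehydrogenase of the same reaction series, had 6.84 and 8.71 RPKM against 6.84 and 6.26 RPKM. Hsd17b7, the ketoreductase that completes the series, measured 2.51 and 4.27 RPKM against 4.27 and 3.46 RPKM. For Msmo1 and Hsd17b7 the genotypes overlap, and for Nsdhl the lower B7-H4-null value equals the higher wild-type value to 3 digits. In all 3, replicate 1 was below replicate 2 in B7-H4-null and above it in wild type. Ebp, a sterol isomerase and the most abundant of the late enzymes, had 24.5 and 32.9 RPKM in B7-H4-null and 31.2 and 29.1 RPKM in wild type. Dhcr7, the reductase that makes cholesterol in the last step of its branch, had 9.73 and 9.69 RPKM against 9.77 and 6.94 RPKM.

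Among the sensing genes, Insig1 had the largest log2 difference of all 31 members on the scale of RPKM + 1. With 0.1 RPKM added in place of 1, Sqle at 0.98 and Fads1 at 0.81 stood above Insig1 at 0.80. This anchor of Scap, itself a known SREBP target (Entrez 231070; chromosome 5, 28071412 to 28078662), had 22.1 and 13.1 RPKM in B7-H4-null and 12.8 and 7.34 RPKM in wild type. B7-H4-null replicate 1 was high and wild type replicate 2 low, while the other two libraries nearly met. The log2 difference was 0.75 ± 0.364 (SE, adjusted p = 0.474). Leaving out B7-H4-null replicate 1 gave 0.39, and leaving out wild type replicate 2 gave 0.38. B7-H4-null replicate 1 was also the library highest in all 10 immediate early genes, and the part of that in this value was not tested. Insig2, its relative, had 3.79 and 4.47 RPKM in B7-H4-null and 5.47 and 5.07 RPKM in wild type, a log2 difference of −0.29 (adjusted p = 0.678). The pair thus lay on opposite sides, and Insig1 exceeded Insig2 by 5.84-fold and 2.92-fold in B7-H4-null and by 2.34-fold and 1.45-fold in wild type. That ratio was not tested.

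The regulators themselves sat close together. Srebf1, which encodes the SREBP forms that favour fatty acid genes, had 24.4 and 29.2 RPKM in B7-H4-null and 34.4 and 25.2 RPKM in wild type. Srebf2, whose product favours sterol genes, had 19.4 and 33.7 RPKM against 25.02 and 20.9 RPKM, and Scap had 25.02 and 23.8 RPKM against 28.7 and 21.3 RPKM. All 3 overlap between genotypes, with adjusted p of 0.869, 0.872 and 0.987. The span of Srebf1 overlaps that of Rai1, so any reads from the shared part cannot be assigned with certainty. The ratio of Srebf1 to Srebf2 was 1.26 and 0.868 in the B7-H4-null libraries and 1.38 and 1.21 in the wild-type libraries. RNA levels do not show how much SREBP protein was cleaved. Stard4, a soluble sterol carrier and SREBP target, had 6.58 and 6.35 RPKM in B7-H4-null and 5.25 and 2.63 RPKM in wild type. The groups do not overlap, the log2 difference was 0.65 ± 0.324 (SE, adjusted p = 0.486), and without wild type replicate 2 it was 0.26.

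Fatty acid synthesis showed the same dependence on single libraries. Of 8 genes, 6 were tested and 0 passed. Of the 6, 5 lay above 0 and 1 below, where 41.5% of all genes lay above 0. Their median was 0.37. Without B7-H4-null replicate 1 it was 0.72, and without wild type replicate 2 it was 0.088. Acly, which makes cytosolic acetyl-CoA for both pathways, was the most abundant member, with 86.1 and 86.1 RPKM in B7-H4-null and 78.3 and 92.5 RPKM in wild type. Fasn, the fatty acid synthase (Entrez 14104; chromosome 11, 120805958 to 120825166), had 24.3 and 34.4 RPKM in B7-H4-null and 28.1 and 13.7 RPKM in wild type. Wild type replicate 2 alone was low, and the log2 difference of 0.53 ± 0.38 (SE, adjusted p = 0.616) was 0.041 without it. Acaca, the carboxylase that supplies malonyl-CoA and overlaps Tada2a, stood at 1.59 and 1.91 RPKM against 2.78 and 2.07 RPKM, a log2 difference of −0.31 (adjusted p = 0.684).

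Of the stearoyl-CoA desaturases, which place the first double bond, LSCs carried Scd2 and hardly any Scd1. Scd2 (Entrez 20250; chromosome 19, 44293676 to 44306864) had 19.9 and 35.4 RPKM in B7-H4-null and 28.2 and 10.4 RPKM in wild type. Scd1 (gene ID 20249, same chromosome) had 0.154 and 0.249 RPKM, or 7 and 13 reads, in B7-H4-null and 0.122 and 0.146 RPKM, or 6 and 7 reads, in wild type. Scd2 was therefore 129-fold and 143-fold above Scd1 in the B7-H4-null libraries and 231-fold and 71.6-fold in the wild-type libraries, although reads of such close paralogs can be misassigned. The log2 difference of Scd2 was 0.59 ± 0.49 (SE, adjusted p = 0.666), and turned to −0.084 without wild type replicate 2. Elovl6, which lengthens palmitate, had 0.946 and 2.67 RPKM in B7-H4-null and 1.06 and 1.62 RPKM in wild type, so that the genotypes overlap.

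Fads1 and Fads2, neighbouring genes for the desaturases of polyunsaturated fatty acids, were both higher in both B7-H4-null libraries. Fads1 (Entrez 76267; chromosome 19, 10182877 to 10196874) had 3.38 and 5.37 RPKM in B7-H4-null and 2.28 and 2.50 RPKM in wild type. It had the smallest p of the 31 tested members, with a log2 difference of 0.64 ± 0.291 (SE, adjusted p = 0.442). Fads2 (Entrez 56473; chromosome 19, 10062765 to 10101503) had 1.06 and 0.552 RPKM in B7-H4-null and 0.131 and 0 RPKM in wild type, too low for the filter. Its steps gave 30 and 18 reads in B7-H4-null and 4 and 0 reads in wild type, taking the whole multiple closest to its annotated exon length. Summed, these are 48 and 4 reads, and the ratio of 11.9, scaled to library size, has an exact 95% binomial interval of 4.36 to 45.5 that covers counting error only. Fitted by limma with no filter on low values, Fads2 had a log2 difference of 0.75, an unadjusted p of 0.0093 and an adjusted p of 0.453. This contrast did not pass over replicates, but limma called 0 of all genes in that fit, so it cannot decide the question.

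The exporters Abca1 and Abcg1, which hand sterol to lipoproteins and are LXR targets, differed in level, with Abca1 close to absent. Abcg1 (Entrez 11307; chromosome 17, 31057694 to 31117984) had 2.28 and 3.84 RPKM in B7-H4-null and 7.86 and 3.60 RPKM in wild type. Wild type replicate 1 alone was high, and the log2 difference of −0.68 ± 0.388 (SE, adjusted p = 0.542), the lowest of the members, was −0.21 without it. Abca1 (gene ID 11303, chromosome 4) had 0 and 25 reads in B7-H4-null and 14 and 11 reads in wild type, at most 0.225 RPKM. Both genotypes summed to 25 reads. The 0 in B7-H4-null replicate 1 stands against 25 reads in the other library of that genotype, so the level of Abca1 was not alike within it.

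Single libraries stood out for many members. Wild type replicate 2 was the lowest of the 4 libraries for 15 of the 31 tested members, or 48.4%, against 22.7% of all genes, a count made after the values were seen. It lay below wild type replicate 1 for 23 members, against 46.4% of all genes. Within the other genotype, B7-H4-null replicate 1 lay below replicate 2 for 22 members, against 61.2%. The median deviation of the members from their own mean was −0.036 and 0.18 (log2) in B7-H4-null replicates 1 and 2, and 0.088 and −0.20 in wild type replicates 1 and 2. Over all genes tested these deviations were −0.10 and 0.016 in B7-H4-null and 0.031 and 0.062 in wild type. Of those 15, Sqle, Scd2, Fasn, Stard4 and Insig1 had the largest such gaps. Wild type replicate 1 stood above replicate 2 by 3.6-fold, 2.71-fold, 2.0498-fold, 1.996-fold and 1.75-fold. Elovl6, Fdft1, Tm7sf2, Acly, Mvd, Fads1, Hmgcs1 and Sc5d ran the other way, at 0.653-fold, 0.766-fold, 0.824-fold, 0.847-fold, 0.847-fold, 0.911-fold, 0.915-fold and 0.938-fold. With 2 libraries a genotype this pattern is a description and has no test, and a low wild type replicate 2 also enters the difference between genotypes, so the effects cannot be told apart. Summed over all 34 members, the libraries held 411 and 470 RPKM in B7-H4-null and 443 and 370 RPKM in wild type, which overlap.

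**Figure D3:**
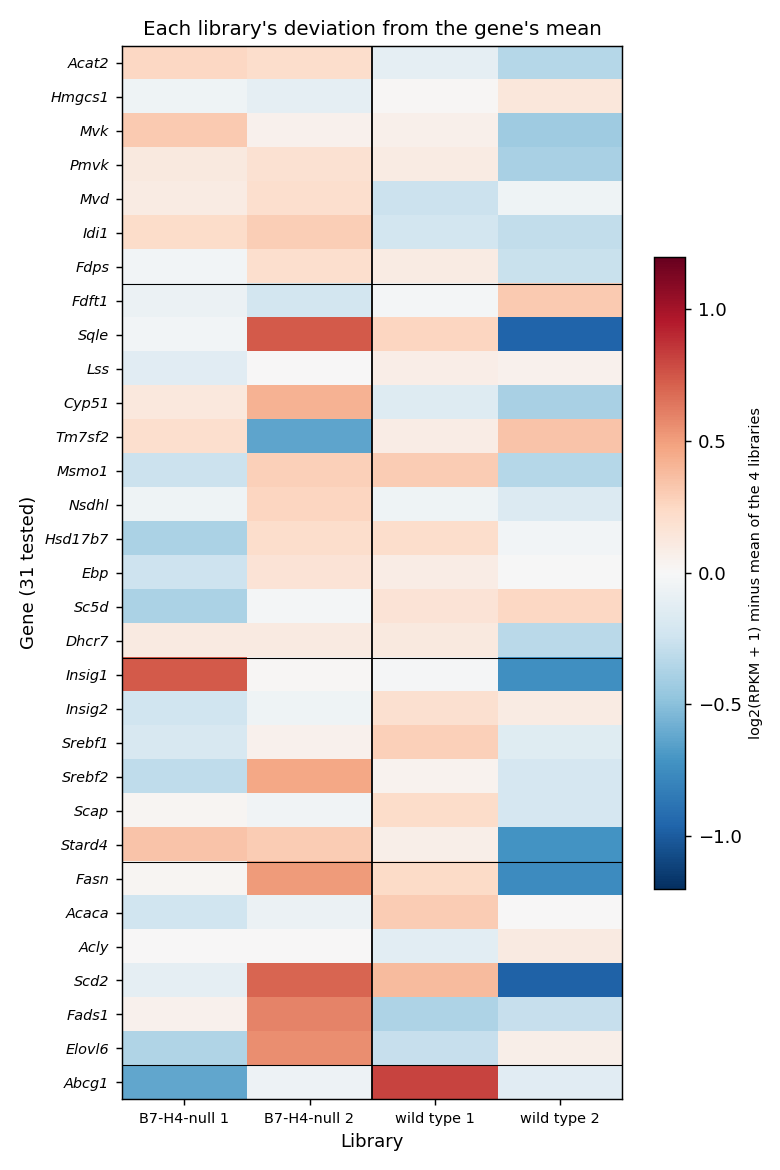
Deviation of each library from the gene's mean over the 4 libraries, in log2(RPKM + 1), for the 31 tested members (rows, by role) with B7-H4-null libraries left and wild-type libraries right. The wild type 2 column is the lowest for 15 members, most deeply for Sqle, Scd2, Fasn, Stard4 and Insig1. Hmgcs1, Fdft1, Tm7sf2, Sc5d and Acly are highest there.

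A further 4 lists place the members in their wider pathways, and 0 of their tested genes passed limma's test. Of 13 other sterol pathway genes, 10 were tested, with a median log2 difference of 0.020. Lbr, the lamin B receptor, which doubles as a sterol reductase, had 101.5 and 145 RPKM in B7-H4-null and 149 and 174 RPKM in wild type (adjusted p = 0.611). Ggps1, which makes the geranylgeranyl anchor, measured 4.61 and 4.84 RPKM against 5.32 and 8.79 RPKM (adjusted p = 0.584). Coq2, of ubiquinone synthesis, had 21.6 and 26.2 RPKM in B7-H4-null and 20.04 and 17.9 RPKM in wild type (adjusted p = 0.65).

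Of the genes that process SREBP or turn over its partners, 16 were tested and 12 were below 0, where 7085 of all 12107 genes also lay. Both B7-H4-null libraries were below wild type for 7 of the 16, against 28% of all genes, and above it for 0, against 16%. The median was −0.24, against −0.086 for all genes, and no test of the list was made. Rnf139, a ubiquitin ligase of the endoplasmic reticulum, had 7.03 and 14.04 RPKM in B7-H4-null and 14.2 and 23.1 RPKM in wild type (adjusted p = 0.472). Sec24d and Sec23a, coat proteins of the vesicles that leave that compartment, had log2 differences of −0.79 and −0.50 (adjusted p = 0.476 and 0.498). All 3 were lower in both B7-H4-null libraries, though for Rnf139 and Sec24d the nearest libraries of the genotypes almost touched.

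Of 30 genes for sterol uptake, storage, export and LXR, 23 were tested, with a median of −0.12. Rxra, the retinoid receptor that pairs with LXR, had 2.94 and 3.86 RPKM in B7-H4-null and 7.65 and 9.002 RPKM in wild type. Its log2 difference of −1.09 ± 0.261 (SE, adjusted p = 0.24) stayed between −1.24 and −0.94 without any 1 library, and it had the smallest p in these lists. Nceh1, which frees stored cholesterol from its esters, had 6.74 and 6.40 RPKM against 9.98 and 9.51 RPKM (adjusted p = 0.46). Pltp, a phospholipid carrier, was higher with 9.17 and 9.83 RPKM against 5.35 and 7.69 RPKM (adjusted p = 0.513). In all 3 the genotypes do not overlap, but none passed, and they were named for their small p. Both B7-H4-null libraries lay above both wild-type libraries for 2 of the 23, against 16% of all genes. They lay below for 5, against 28%.

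Of 32 further genes of fatty acid and lipid synthesis, 24 were tested, 12 above and 12 below 0, with a median of 0.014. Acacb, the mitochondrial relative of Acaca, had 0.626 and 0.545 RPKM in B7-H4-null and 1.998 and 1.09 RPKM in wild type (adjusted p = 0.448). Elovl7, an elongase, had 2.67 and 3.03 RPKM against 1.09 and 1.94 RPKM (adjusted p = 0.449). Hacd4, a dehydratase of elongation, and Mid1ip1, which activates acetyl-CoA carboxylase, had log2 differences of −0.66 and −0.62 (adjusted p = 0.474 and 0.486). Directions in this list were thus mixed, as in the members.

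**Figure D4:**
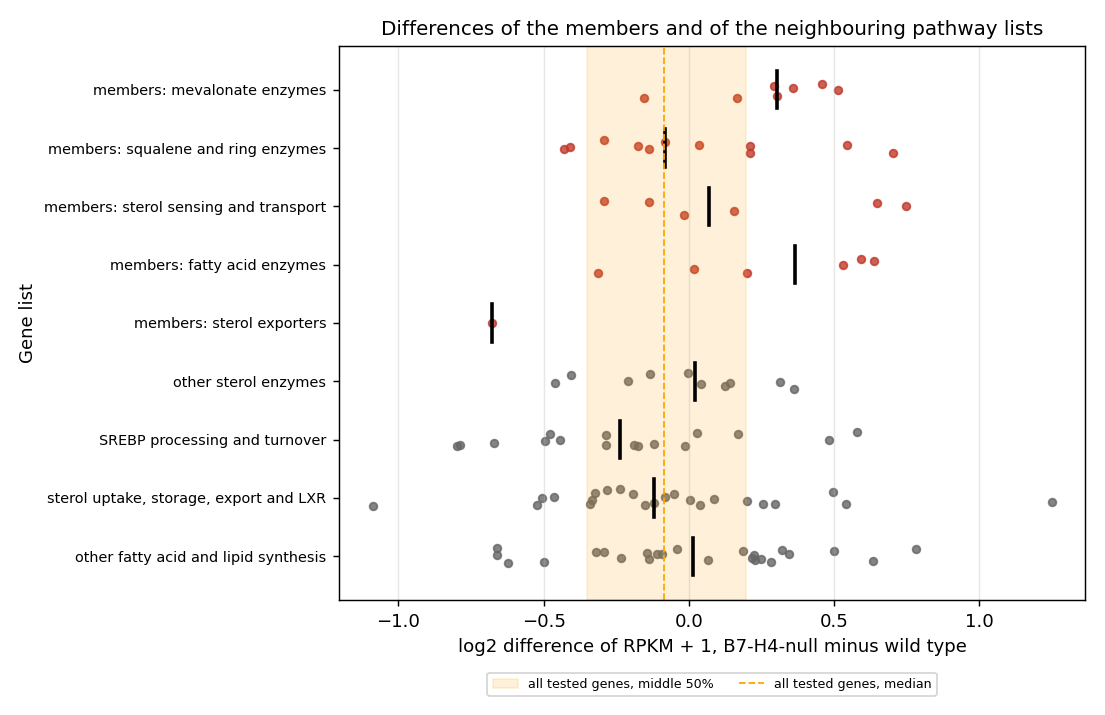
Log2 difference of RPKM + 1, B7-H4-null minus wild type, for each tested gene of the members' roles (red) and of 4 neighbouring lists (grey), with black bars at list medians and the middle of all tested genes shaded. Medians run from −0.68, a single exporter, to 0.37, and points of every list except the exporters fall on both sides of 0.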

How the data were processed

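RNA of the 4 samples was sequenced from TruSeq RNA v2 libraries on a HiSeq2500, per the labels, and the submitters' processing notes name TopHat2 2.0.12 and the build GRCm38. The authors deposited 1 table of 27179 Entrez gene IDs whose values were taken as RPKM from their steps and sums. How reads were counted, with what annotation and strand setting, the sources used here do not give. Symbols (25275 IDs), coordinates and promoter windows came from RefSeq tables of GRCm38.p6, and exon lengths from GENCODE. Totals and reads were recovered from the steps: 14606 of 14608 genes above 0 in every library gave whole reads within 0.001 read plus an allowance for rounding of the totals. Reads of a gene are thereby known only up to a whole factor. By annotated exon length that factor was 2 for Lss, Sc5d, Stard4 and Fads2, and voom used the reads without it.

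The 12107 genes that reached 1 RPKM in 2 of the 4 libraries were tested with limma 3.58.1 in R 4.3.3 on log2(RPKM + 1), genotype as the only term, with a mean-variance trend, two-sided tests and Benjamini-Hochberg adjustment over all tested genes at 0.05. The pseudocount understates differences of low genes. The fit was also run on simulated data, a check that asked for calls only at differences far larger than those of the members. Separate animals are not stated in the labels, and p-values then reflect the spread among these 4 samples alone, possibly a technical one. With 2 samples a genotype, exact permutation allows no p under 0.33, so none was run. The members, lists and tests were chosen with earlier results of these data known. All members are named, and of each neighbouring list the 4 genes with the smallest p and a mean of at least 1 RPKM in a genotype, some of which are not reported here. Of the listed genes, Faxdc2 and Hbb-bt were not matched in the table. Alternatives were another pseudocount (0.1), no filter or 5 RPKM, median-ratio scaling, quantile normalization, no trend, voom on recovered reads, a replicate block and leaving out each library.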

Additional observations from a re-analysis of the deposited data

How the results depend on the processing

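Over the 12 alternatives run, 0 members were called in each, and the lowest adjusted p of a member was 0.177, for Insig1 with the replicate number as a block. The labels give no shared animal or day behind these numbers, and the differences between replicates 1 and 2 of the genotypes correlated across genes at 0.247. With the replicate block, 21 genes of all tested were called in place of 12, with no filter on low values 0, and leaving out 1 library gave 0 to 56. The median log2 difference of the members was 0.26 after median-ratio scaling and 0.22 after quantile normalization. Median-ratio scaling put the median of all genes at 0.0070, in place of −0.086. Leaving out 1 library gave −0.0081 to 0.29 for all members, −0.013 to 0.31 for the sterol enzymes and 0.088 to 0.72 for the fatty acid enzymes. It left 22 to 25 members without overlap in place of 15, since a single library is less likely to overlap. The same count was not made over all genes with a library left out, so these numbers have no background to be read against. The count without overlap was also not run with voom, which puts the reads on another scale. Nor was it run with the block or no trend, which change no level.

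Of the 31 tested members, 20 kept their sign throughout. After median-ratio scaling Ebp was at 0.018 and Scap at 0.084, and after quantile normalization Scap was at 0.036 and Acly at −0.021. Leaving out 1 library gave −0.018 to 0.35 for Fdps, −0.29 to 0.36 for Msmo1, −0.47 to 0.12 for Hsd17b7, −0.29 to 0.12 for Ebp, −0.0081 to 0.43 for Dhcr7, −0.35 to 0.079 for Srebf1 and −0.23 to 0.54 for Srebf2. The ranges were −0.22 to 0.19 for Scap, −0.10 to 0.14 for Acly, −0.084 to 1.27 for Scd2 and −0.26 to 0.66 for Elovl6. The cause of these changes was not tested. With 2 libraries a genotype, the median half-width of the 95% interval was 0.65 over the members, and depth limits Scd1, Fads2 and Abca1, read 0 to 30 times per library.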
